A study of Mus musculus with 8 samples.

Results

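The EGR and NR4A genes are the 7 immediate-early transcription factor genes Egr1, Egr2, Egr3, Egr4, Nr4a1, Nr4a2 and Nr4a3. They were taken by gene symbol from the annotation of the array, which gave 9 of the 22206 probe sets compared, 3 of them for Egr3. The tissue was annulus fibrosus (AF), the fibrous outer ring of the intervertebral disc. It came from 4 Abcc6 knockout (KO) mice, numbered 6, 7, 8 and 9, and from 4 wild-type (WT) mice, numbered 1, 2, 3 and 5. Every mouse was female, 7 months old and on the C57BL6J background. The deletion in KO mice is global and not limited to the disc, WT mice served as controls, and no treatment is recorded for either genotype. The AF of the lumbar discs was pooled within each mouse and hybridised to 1 Mouse Clariom S array, so that mice are the replicates. Values are log2 signal as the authors deposited it, and 1 unit is a doubling.

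Immediate-early genes are switched on within minutes of a growth factor, a mechanical load or another stimulus, without new protein being made. EGR proteins are zinc finger factors that bind GC-rich sites, and EGR1 is known in tendon as a factor that responds to load. NR4A proteins are nuclear receptors that act without a known hormone, so that their amount sets much of their activity. Both families are read out from promoters that serum response factor (SRF) and the cAMP response element binding protein (CREB) occupy, SRF more for the EGR genes and CREB more for the NR4A genes.

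The promoter letters below show the short motifs known for these inputs in Nr4a1, Nr4a2 and Egr2, whose signal stood above background, with Nr4a3 added to complete the NR4A genes. Egr1, also above background, and Egr3 had no entry among the promoter sequences used and were not searched. Each run is the 250 bases before the RefSeq start site in build GRCm38.p6, read 5′ to 3′ on the strand of the gene. Capitals mark the TGACG core of the cAMP response element on either strand (CGTCA on the other one) and, in Egr2, the CArG box that SRF binds. The windows are chr15:101266596-101266845 on the plus strand for Nr4a1, chr2:57124004-57124253 on the minus strand for Nr4a2, chr4:48045055-48045304 on the plus strand for Nr4a3 and chr10:67537620-67537869 on the plus strand for Egr2.
Nr4a1: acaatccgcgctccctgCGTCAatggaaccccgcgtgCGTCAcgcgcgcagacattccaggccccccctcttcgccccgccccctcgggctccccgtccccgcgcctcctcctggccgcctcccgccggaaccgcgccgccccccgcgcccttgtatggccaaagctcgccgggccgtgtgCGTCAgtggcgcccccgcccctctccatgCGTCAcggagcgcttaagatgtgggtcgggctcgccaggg
Nr4a2: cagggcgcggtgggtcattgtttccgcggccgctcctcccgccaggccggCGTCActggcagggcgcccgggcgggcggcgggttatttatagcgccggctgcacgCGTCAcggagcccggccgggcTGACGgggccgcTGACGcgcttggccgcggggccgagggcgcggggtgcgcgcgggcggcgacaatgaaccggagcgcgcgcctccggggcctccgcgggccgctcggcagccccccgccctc
Nr4a3: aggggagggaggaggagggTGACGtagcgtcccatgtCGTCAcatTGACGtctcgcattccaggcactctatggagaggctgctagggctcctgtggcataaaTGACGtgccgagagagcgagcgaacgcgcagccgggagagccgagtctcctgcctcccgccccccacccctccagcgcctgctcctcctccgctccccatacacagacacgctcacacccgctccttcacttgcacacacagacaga
Egr2: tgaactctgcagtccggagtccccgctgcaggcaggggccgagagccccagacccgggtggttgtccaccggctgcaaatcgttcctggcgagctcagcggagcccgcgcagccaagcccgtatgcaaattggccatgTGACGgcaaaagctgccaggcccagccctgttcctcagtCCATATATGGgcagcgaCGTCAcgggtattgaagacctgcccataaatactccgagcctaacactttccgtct

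Each of the 3 NR4A windows held 4 TGACG cores. In Nr4a1 they began 233, 213, 69 and 40 bases before the start site, in Nr4a2 200, 144, 123 and 111 bases before it, and in Nr4a3 231, 213, 205 and 147 bases before it. Of 32851 RefSeq promoter windows of this length, 17.8% held at least 1 such core and 45 windows (0.137%) held at least 4. The Egr2 window held 2 cores, at 112 and 56 bases, and a CArG box at 73 bases that lies between them. A CArG box was found in 1.47% of all windows, and a CArG box together with a TGACG core in 0.17%. Egr2 has 5 listed start sites, of which the windows of 3 hold this arrangement and the window of another holds a CArG box alone. The window of Egr4 held 2 TGACG cores, at 177 and 109 bases. No window of these 5 genes held the full palindrome TGACGTCA (1.55% of all windows), the NR4A site AAAGGTCA (1.34%) or the EGR site GCGTGGGCG (0.536%). All motifs were searched on both strands, the palindrome contains the core, and a match is a run of letters and not evidence of binding.

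Signal stood clear of background for 4 of the 7 genes. Background is the median signal of an array's 5222 negative control probe sets, which was 5.40 to 5.995 log2 in KO mice and 5.43 to 5.82 log2 in WT mice. Egr1, Egr2, Nr4a1 and Nr4a2 lay above it in all 8 mice. Egr1 lay 5.24 to 6.79 log2 above it in KO mice and 6.58 to 10.44 log2 above it in WT mice, and signals of different probe sets do not rank the transcripts. Egr4, Nr4a3 and the first Egr3 probe set lay below it in all 8 mice, so that these 3 probe sets were not shown to measure the transcript in either genotype. The other 2 Egr3 probe sets stayed within 1 log2 of background in every mouse.

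KO AF had lower Egr1 and Nr4a1 signal than WT AF, by 4.14-fold and 3.96-fold, and both genes ran from mouse to mouse in 1 and the same order. Egr2 was 2.12-fold lower and Nr4a2 1.598-fold lower, and neither was called. WT mouse 3 had the highest value for all 4 of these genes. Only Nr4a1 reached the cutoff used here, an unadjusted p of at most 0.01 with a fold change of at least 1.75, which is the one named in the study's methods. That is 1 of 7 genes, beside 0.297% of all probe sets lower in KO AF at this cutoff. No member passed after adjustment over all probe sets.

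Egr1 encodes the founding EGR factor, which in tendon drives collagen genes. Its signal was 12.60, 11.35, 11.79 and 11.12 log2 in KO mice 6, 7, 8 and 9, and 12.91, 13.84, 16.08 and 12.24 log2 in WT mice 1, 2, 3 and 5. WT mice 3, 2 and 1 were the highest, in that order, and the genotypes overlapped only because KO mouse 6 lay above WT mouse 5. The mean was 11.72 ± 0.65 log2 in KO mice and 13.77 ± 1.67 log2 in WT mice (SD, n = 4 each). The log2 fold change, KO minus WT, was −2.05 (standard error, SE, 0.72, 95% confidence interval −3.64 to −0.45, unadjusted p = 0.0167 and adjusted p = 0.848 from limma). A 2-sided exact permutation test, over all 35 ways to divide the mice 4 and 4, gave p = 0.0571, where the smallest p this design allows is 0.0286. WT mouse 3 stood 2.24 log2 above the next mouse, and without it the log2 fold change was −1.28 (SE 0.48).

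Nr4a1 encodes NUR77, the NR4A receptor that many stimuli induce first. Its signal was 7.71, 7.23, 7.57 and 6.83 log2 in KO mice 6, 7, 8 and 9, against 9.06, 9.80, 10.78 and 7.63 log2 in WT mice 1, 2, 3 and 5. All KO mice lay within 0.88 log2 of each other, while WT mice spanned 3.15 log2, with WT mouse 5 among the KO values. KO mouse 6 exceeded WT mouse 5 by a small margin, which is the only overlap. The mean was 7.33 ± 0.39 log2 in KO mice and 9.32 ± 1.33 log2 in WT mice (SD, n = 4 each). The log2 fold change was −1.98 (SE 0.57, 95% confidence interval −3.25 to −0.71, unadjusted p = 0.00576 and adjusted p = 0.848 from limma, exact permutation p = 0.0571). Without WT mouse 3 it was −1.495 (SE 0.50) and without WT mouse 5 −2.55. Leaving out KO mouse 7, 8 or 9 or WT mouse 2 or 3 put Nr4a1 outside the cutoff, at unadjusted p-values of 0.0106 to 0.0201 from limma.

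Egr2 encodes KROX20, known from Schwann cells, where it drives myelin genes, and from tendon. KO mice 6, 7, 8 and 9 had 7.67, 7.93, 8.81 and 8.05 log2, and WT mice 1, 2, 3 and 5 had 8.98, 9.68, 10.87 and 7.28 log2. WT mice 1, 2 and 3 lay above every KO mouse, while WT mouse 5 was the lowest of the 8. The mean was 8.11 ± 0.49 log2 in KO mice and 9.20 ± 1.501 log2 in WT mice (SD, n = 4 each). The log2 fold change was −1.09 (SE 0.64, 95% confidence interval −2.51 to 0.33, adjusted p = 0.848 from limma, exact permutation p = 0.229). It was −0.53 without WT mouse 3 and −1.73 without WT mouse 5. Leaving out WT mouse 5 brought both Egr1 (log2 fold change −2.56) and Egr2 to the cutoff.

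Nr4a2 encodes NURR1, best known from dopamine neurons. It had 8.31, 8.29, 6.47 and 7.82 log2 in KO mice 6, 7, 8 and 9, against 7.39, 7.95, 10.19 and 8.06 log2 in WT mice 1, 2, 3 and 5. Apart from WT mouse 3, which was highest by 1.88 log2, and KO mouse 8, which was lowest, the genotypes were intermixed. The log2 fold change was −0.68 (SE 0.62, 95% confidence interval −2.04 to 0.69, adjusted p = 0.852 from limma), and without WT mouse 3 it was −0.08.

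**Figure D1:**
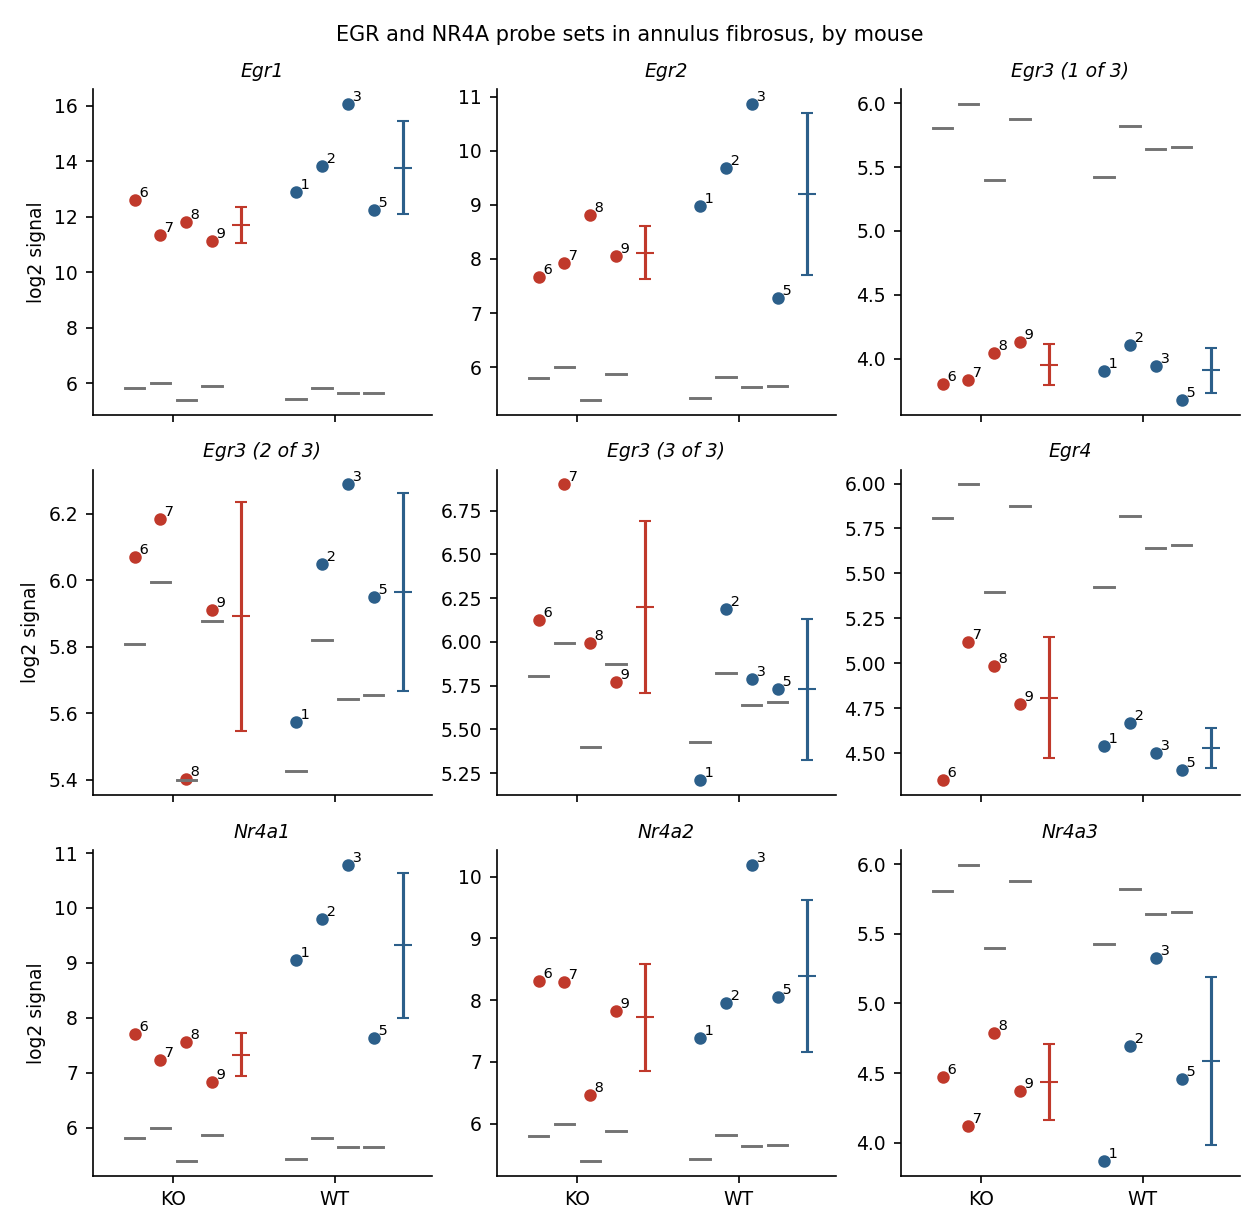
Log2 signal of each of the 9 EGR and NR4A probe sets in 4 KO (red, left) and 4 WT (blue, right) mice, with the mouse number beside each point, the mean ± SD as a bar and the array's negative control median as a grey dash. The vertical scale differs between panels and does not start at 0. Egr1, Nr4a1, Egr2 and Nr4a2 are highest in WT mouse 3, and Egr4, Nr4a3 and the first Egr3 probe set lie below the grey dashes in all 8 mice.

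Nr4a3, Egr4 and Egr3, at or near background, stayed outside the cutoff with confidence intervals across 0. Nr4a3 encodes NOR1 and stood at 4.12 to 4.78 log2 in KO mice and 3.87 to 5.32 log2 in WT mice (log2 fold change −0.15, SE 0.34). Egr4 had 4.35, 5.12, 4.99 and 4.77 log2 in KO mice 6, 7, 8 and 9, and 4.54, 4.67, 4.499 and 4.40 log2 in WT mice 1, 2, 3 and 5. KO mice 7, 8 and 9 were the highest of these and KO mouse 6 the lowest, with a log2 fold change of 0.28 (SE 0.27). Egr3 is itself a target of other immediate-early factors. Its first probe set averaged 3.95 ± 0.16 log2 in KO mice and 3.91 ± 0.18 log2 in WT mice (SD, n = 4 each), a log2 fold change of 0.04 (SE 0.25). The identifiers of the second and the third Egr3 probe set mark them as not mapped by the manufacturer. The second had a log2 fold change of −0.07 (SE 0.29). The third, which has the highest mean and stands for the gene in the counts, had 6.13, 6.90, 5.99 and 5.77 log2 in KO mice 6, 7, 8 and 9, and 5.21, 6.19, 5.79 and 5.73 log2 in WT mice 1, 2, 3 and 5. KO mouse 7 was the highest and WT mouse 1 the lowest, with the remaining mice intermixed, and the log2 fold change was 0.47 (SE 0.33, adjusted p = 0.848 from limma).

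Counted by gene, 5 of the 7 were lower in KO AF and 2, Egr3 and Egr4, were higher, where 47.6% of all probe sets were lower. An unadjusted p under 0.05 with lower signal in KO AF was reached by 2 genes, Egr1 and Nr4a1, against 2.46% of all probe sets (limma). No member separated the genotypes without overlap, which 0.973% of all probe sets did with lower values in KO AF. The median log2 fold change of the 7 genes was −0.68, and −0.08 without WT mouse 3, while the median over all probe sets was 0.03 and 0.02. Egr3, Egr4 and Nr4a3, at or near background, enter both this median and the counts by direction. Of the 9 probe sets, 6 had their highest value in WT mouse 3, as did 13.6% of all probe sets.

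**Figure D2:**
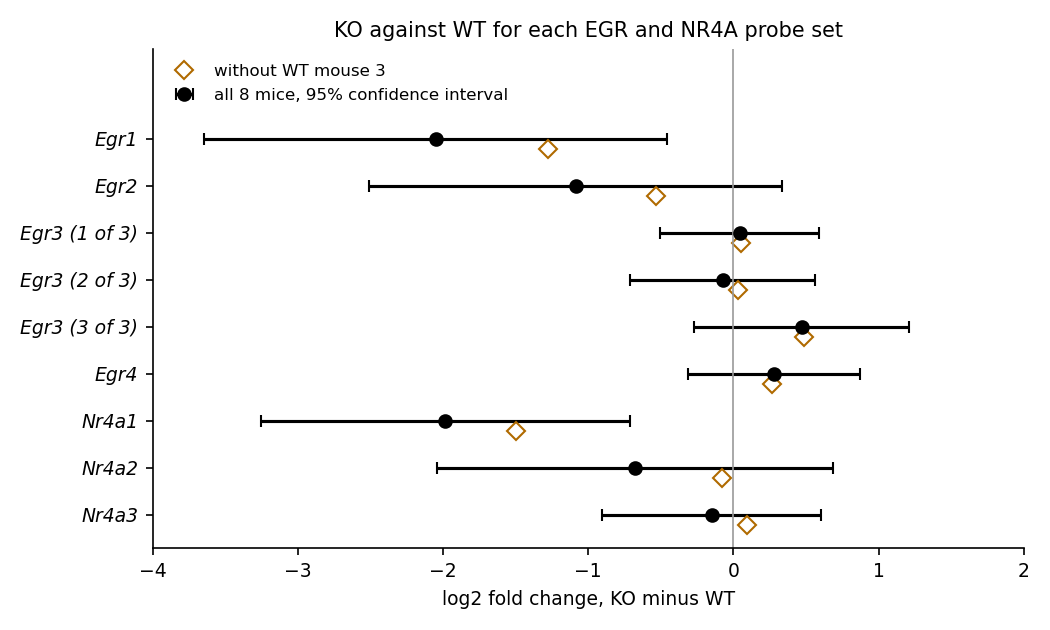
Log2 fold change of KO over WT for each EGR and NR4A probe set (black point, with its 95% confidence interval from limma) and the same without WT mouse 3 (open diamond). The intervals of Egr1 (−3.64 to −0.45) and Nr4a1 (−3.25 to −0.71) lie below 0, and the diamonds of Egr1, Egr2, Nr4a1 and Nr4a2 lie nearer to 0 than their points.

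Egr1 and Nr4a1 ranked the 8 mice identically, with WT mice 3, 2 and 1 first, then KO mouse 6, WT mouse 5 and KO mice 8, 7 and 9. Pearson's r over the 8 mice was 0.96 and Spearman's rho was 1. Without WT mice 2 and 3, the mice farthest from the median in Egr1, r was 0.88, and with each genotype's mean removed it was 0.93. The agreement was thus present within the genotypes as well as between them. Egr1 and Egr2 had r = 0.84 and rho = 0.62, but r = 0.15 without WT mice 2 and 3, and 0.59 without WT mouse 3 alone. For Egr1 and Nr4a2 the values were 0.71 and 0.36, and −0.03 without these 2 mice. Without WT mouse 3 alone r was 0.08, so that this likeness rests on that mouse. For Egr2 and Nr4a1 r was 0.89 and rho 0.62, with r = 0.52 without the 2 mice and 0.77 without WT mouse 3 alone. These are descriptions over 8 arrays that share their scaling, and no p is attached to them.

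**Figure D3:**
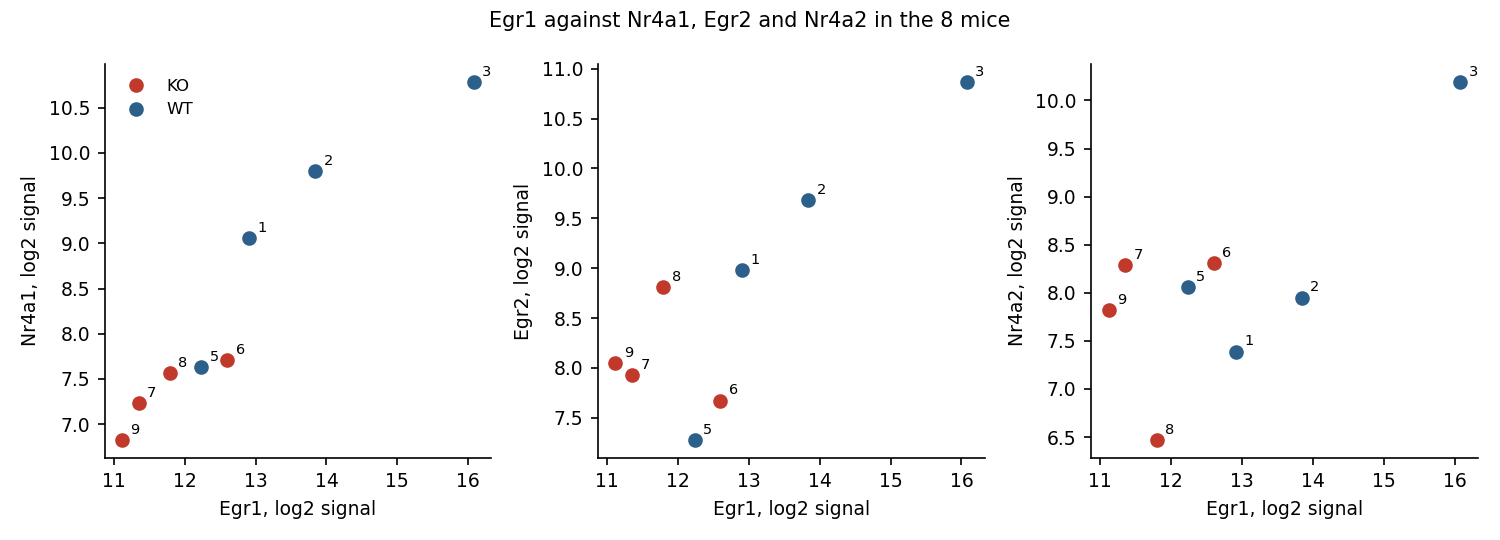
Log2 signal of Nr4a1, Egr2 and Nr4a2 (vertical axes) against Egr1 (horizontal axis) in 4 KO (red) and 4 WT (blue) mice, with mouse numbers. Nr4a1 follows the order of Egr1 through all 8 mice. Egr2 shares its 3 highest mice, WT mice 3, 2 and 1, but not the order of the KO mice and WT mouse 5, and Nr4a2 shares only the highest, WT mouse 3.

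The genes most like a member over the 8 mice were sought among the 19563 named probe sets of other genes, by Pearson's r. Of these probe sets, 50 had an r over 0.9 with Egr1, 23 with Nr4a1, 11 with Egr2 and 12 with Nr4a2. For the members at or near background the counts were 70 for Egr3, 48 for Nr4a3 and 13 for Egr4. The nearest of so many probe sets over 8 mice are selected for a high r, so that no link is read from it. For Egr1 the nearest genes were Samd4, the cAMP phosphodiesterase gene Pde4b and the matrix protease gene Adamts1 (r = 0.97 each). Pde4b had 11.47, 10.60, 10.59 and 10.91 log2 in KO mice 6, 7, 8 and 9, and 11.63, 13.57, 15.64 and 11.14 log2 in WT mice 1, 2, 3 and 5. It was high in WT mice 3 and 2 and near the KO values in WT mouse 5, as Egr1 was (log2 fold change −2.10, SE 0.83, or −1.22 without WT mouse 3). Adamts1, above background in 2 of 4 KO and 4 of 4 WT mice, stood at 5.49 to 6.299 log2 in KO mice and 6.41 to 8.23 log2 in WT mice. For Nr4a1 the nearest genes were Epn2 (r = 0.96), Fam131c (0.96), which lay below background in all 8 mice, and Atf3 (0.95). For Egr2 they were Sftpa1 (0.98), the heat shock co-chaperone gene Dnajb1 (0.95) and Ccn1 (0.93), the last of which is itself an immediate-early gene. Sftpa1 lay above background in only 1 of 4 KO and 3 of 4 WT mice. For Nr4a2 they were Amotl2 (0.96), Tmbim1 (0.95) and Fam25c (0.95). Amotl2 lay above background in 3 of 4 KO and 4 of 4 WT mice, and Tmbim1 in 3 of 4 KO and 3 of 4 WT mice. The members near background were most like Zc3hav1, Usp27x and Plp2 for Nr4a3 (0.97 to 0.98), Nudt16, Prelid3a and Ces1a for Egr3 (0.96 to 0.98) and Btn1a1, Nars2 and Traip for Egr4 (0.94 to 0.96), and Ces1a lay below background in all 8 mice. Usp27x lay above it in 0 of 4 KO and 1 of 4 WT mice, and Prelid3a in 1 of 4 KO and 0 of 4 WT mice. Nudt16 and Traip lay above it in 2 of 4 KO and 0 of 4 WT mice, and Btn1a1 in 3 of 4 KO and 4 of 4 WT mice.

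Of 40 other immediate-early genes, 36 had lower signal in KO AF, beside 47.6% of all probe sets. The other 4, Dusp2, Ptgs2, Cebpb and Socs3, had higher signal. The median log2 fold change of the 40 genes was −0.85, and −0.41 without WT mouse 3. Fosb and Atf3 reached the cutoff (2 of 40, beside 0.297% of all probe sets), and Fosb and Rhob separated the genotypes (2 of 40, beside 0.973%). Of the 40 genes, 34 had their highest value in WT mouse 3, beside 13.6% of all probe sets, and 8 had an unadjusted p under 0.05 with lower signal in KO AF, beside 2.46%. Ier3, Maff, Arc, Cebpb and Socs3 lay below background in all 8 mice. This list, like the other lists and the members, was chosen with earlier results of these data known. Counts set beside the shares of all probe sets are therefore descriptions and not independent evidence.

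Atf3 encodes a stress-induced factor that dimerises with JUN proteins. It had 8.97, 7.71, 7.64 and 6.33 log2 in KO mice 6, 7, 8 and 9, and 9.43, 10.26, 11.94 and 8.63 log2 in WT mice 1, 2, 3 and 5. The upper 5 places were those of Egr1 and Nr4a1, with KO mouse 6 again above WT mouse 5, and r with Egr1 was 0.97, or 0.95 without WT mice 2 and 3. Its log2 fold change was −2.40 (SE 0.71, adjusted p = 0.848 from limma), or −1.77 without WT mouse 3. Fosb, an AP-1 subunit gene, had 10.48, 10.48, 10.68 and 9.06 log2 in KO mice 6, 7, 8 and 9, against 11.62, 12.37, 15.58 and 11.52 log2 in WT mice 1, 2, 3 and 5. Its r with Egr1 was 0.96, or 0.76 without WT mice 2 and 3, and it stayed at the cutoff without WT mouse 3. Rhob, a small GTPase gene, had 8.95, 7.82, 9.15 and 8.09 log2 in KO mice 6, 7, 8 and 9, and 10.34, 9.39, 12.72 and 9.71 log2 in WT mice 1, 2, 3 and 5 (log2 fold change −2.04, SE 0.66, or −1.31 without WT mouse 3). The zinc finger factor genes Klf4 and Klf6 had log2 fold changes of −1.74 (SE 0.65) and −1.56 (SE 0.56), and both overlapped between genotypes. Without WT mouse 3 they were −1.02 and −1.09. Csrnp1 (−1.94, SE 0.79), Nfkbiz (−1.48, SE 0.64), whose product is a nuclear regulator of NF-kB, and Sik1 (−1.42, SE 0.62), which encodes a kinase that restrains CREB signalling, overlapped too, and were −1.04, −0.78 and −0.86 without WT mouse 3. Csrnp1 lay above background in only 2 of 4 KO mice, against 4 of 4 WT mice, so that its fold change rests on KO values at background.

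**Figure D4:**
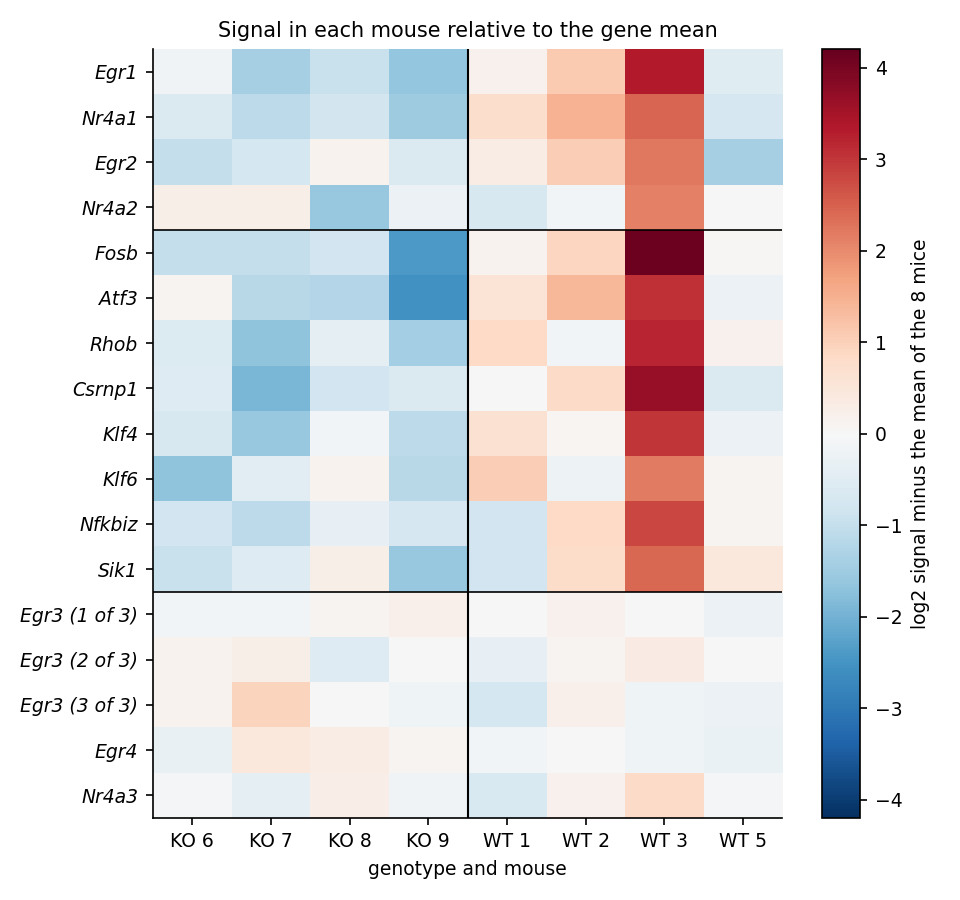
Log2 signal in each of the 4 KO and 4 WT mice minus the mean of the 8 mice, for the 4 members above background (top), 8 other immediate-early genes (middle) and the members at or near background (bottom). WT mouse 3 is the darkest red column in the upper 12 rows, and the rows of Egr1 and Nr4a1 shade in the same order.

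**Figure D5:**
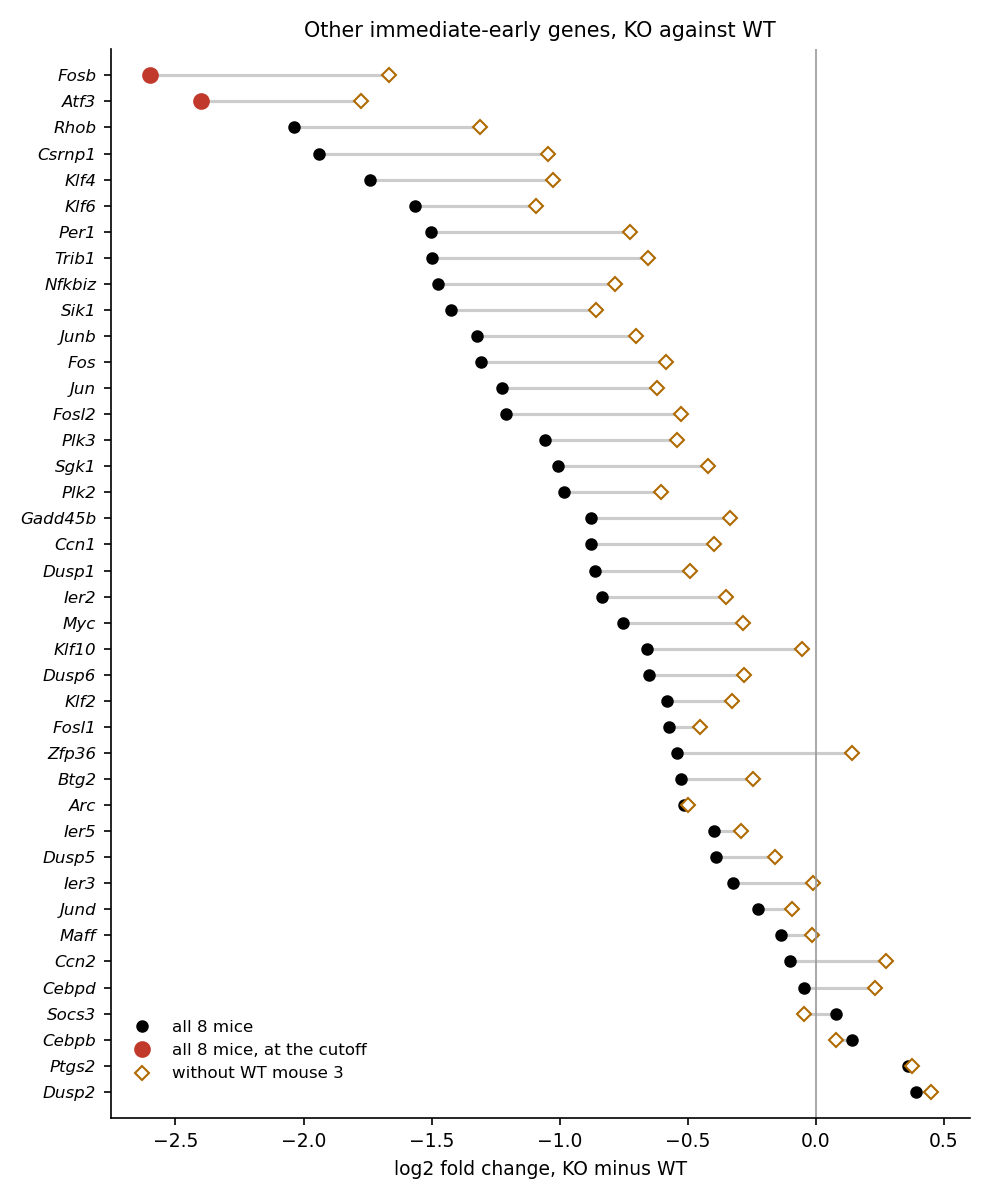
Log2 fold change of KO over WT for the 40 other immediate-early genes with all 8 mice (filled points, red where at the cutoff) and without WT mouse 3 (open diamonds). Points of 36 genes lie below 0, and the median moves to −0.41 without WT mouse 3, against −0.85 with all mice.

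Of 15 SRF, ternary complex, CREB and MEF2 family genes, 14 were measured. Lower signal in KO AF was found for 12 of them, beside 47.6% of all probe sets. At the cutoff were 0 of 14, beside 0.725% of all probe sets in either direction, and 0 had an unadjusted p under 0.05, beside 5.28% (limma). Their median log2 fold change was −0.42, and −0.23 without WT mouse 3. Of the 14, 9 were highest in WT mouse 3, beside 13.6% of all probe sets. Elk3, a ternary complex factor gene, had a log2 fold change of −0.77 (SE 0.49), Crtc1, a CREB coactivator gene, −0.54 (SE 0.32) and Mef2d −0.42 (SE 0.34). Of the RAS, RAF, MAP kinase and RSK family genes listed, 7 of 14 were measured. All 7 were lower, beside 47.6% of all probe sets (median −0.48, and −0.40 without WT mouse 3). Rps6ka5 encodes MSK1, a kinase that phosphorylates CREB and histone H3 at immediate-early genes, and it reached the cutoff (1 of 7, beside 0.297% of all probe sets lower). It had 7.70, 7.72, 8.33 and 7.87 log2 in KO mice 6, 7, 8 and 9, and 8.29, 8.79, 9.43 and 9.11 log2 in WT mice 1, 2, 3 and 5. KO mouse 8 and WT mouse 1 alone overlapped, and the log2 fold change was −1.002 (SE 0.32), or −0.83 and outside the cutoff without WT mouse 3. Rps6ka3 (−0.70, SE 0.34) and Map2k1 (−0.59, SE 0.34) did not reach it.

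Genes of known partners of the members stayed outside the cutoff. The EGR corepressor genes Nab1 and Nab2, of which Nab2 is an EGR target, had log2 fold changes of −0.48 (SE 0.36) and 0.02 (SE 0.27). Rxra, Rxrb and Rxrg encode the retinoid X receptors with which NUR77 and NURR1 form dimers, and gave 0.25 (SE 0.36), −0.41 (SE 0.70) and 0.05 (SE 0.50). Rxrg lay above background in 1 of 4 KO and 1 of 4 WT mice, and Nab2, Rxra and Rxrb in 3 of 4 KO and 4 of 4 WT mice.

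Of 15 matrix and tendon genes linked to EGR1 or EGR2, 14 were measured, and 8 were lower and 6 higher in KO AF. Over all probe sets 47.6% were lower. Of the 14, 0 reached the cutoff (0.725% of all probe sets) or an unadjusted p under 0.05 (5.28%, limma). The median log2 fold change of the 14 genes was −0.07, and 0.05 without WT mouse 3. Dcn, which encodes decorin, stood at 19.62 to 19.69 log2 in KO mice and 19.74 to 19.92 log2 in WT mice, at the top of the scale, so that no difference is read from it. It is among the 8 genes counted as lower. The proteoglycan gene Fmod (−0.70, SE 0.68) and the collagen gene Col14a1 (−0.23, SE 0.29) overlapped between genotypes, and Col14a1 lay above background in 3 of 4 KO and 3 of 4 WT mice. Of 10 myelin genes that EGR2 acts on in Schwann cells, 6 were measured. Of these, 4 were lower in KO AF, beside 47.6% of all probe sets, and 2, Mag and Gjb1, were higher. The median log2 fold change of the 6 was −0.77, and −1.01 without WT mouse 3. Mag and Gjb1 lay below background in all 8 mice. The mean of the 6 genes was 9.07 log2 in WT mouse 1, against 7.54, 7.11 and 6.998 log2 in WT mice 2, 3 and 5. Of the 6 genes, 0 were highest in WT mouse 3, so that leaving it out does not test the mouse that stands out here. Mbp reached the cutoff (1 of 6, beside 0.297% of all probe sets lower), at 6.19, 6.11, 7.27 and 6.09 log2 in KO mice 6, 7, 8 and 9, and 9.21, 7.99, 7.56 and 7.67 log2 in WT mice 1, 2, 3 and 5. Its highest mouse was WT mouse 1 and not WT mouse 3, and the log2 fold change was −1.69 (SE 0.43), or −1.33 without WT mouse 1. Mbp in KO mice 6, 7 and 9 lay near the background of their arrays, which was 5.81, 5.995 and 5.88 log2. Pmp22 (−1.57, SE 1.25) and Mal (−1.34, SE 0.86) were likewise highest in WT mouse 1, and gave −0.39 and −0.27 without it.

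The mean of 14 AF and cartilage cell markers was 10.57 to 11.88 log2 in KO mice and 11.21 to 12.61 log2 in WT mice, highest in WT mouse 3 (2-sided exact permutation test of the means, p = 0.343). Its r with Egr1 was 0.84 and rho 0.69, with r = 0.74 without WT mice 2 and 3 and 0.61 without WT mouse 3 alone. Of these markers, 12 of 14 were lower in KO AF and 9 were highest in WT mouse 3, beside 47.6% and 13.6% of all probe sets. Scx alone lay below background in all 8 mice, while Dcn and Chad lay far above background on every array. The tissue thus carried the genes of its label. Dcn, at the top of the scale, is among the 12 lower markers and the 9 highest in WT mouse 3, and no direction is read from it. Chad was near the top of the scale in WT mouse 3 (19.77 log2) and KO mouse 6 (19.51 log2). The order of these 2 mice in Chad is therefore not read. The control contrast of an array, the median of its 1324 positive minus that of its 5222 negative control probe sets, was 2.37 to 4.30 log2 in KO mice and 3.17 to 4.28 log2 in WT mice, with r = 0.48 against Egr1 and 0.51 against Nr4a1. Without WT mice 2 and 3 these were 0.56 and 0.67, without WT mouse 3 alone 0.29 and 0.34, and with genotype means removed 0.23 and 0.23. With the control contrast as a covariate the log2 fold changes were −1.76 for Egr1 and −1.76 for Nr4a1, which no longer reached the cutoff. That of Egr2 was −0.68, against −1.09 without the covariate, that of Nr4a2 −1.01, against −0.68, and the median of the 40 other immediate-early genes −0.42, against −0.85. The part of the AF cells and of the control contrast in these differences was not tested. In tissue of mixed cells, fewer cells of a type and less RNA per cell cannot be told apart.

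RNA of other tissues was present in every array. The mean of 16 neutrophil markers was 14.37 to 16.59 log2 in KO mice and 15.76 to 16.57 log2 in WT mice, and that of 8 red cell precursor markers 11.10 to 12.26 log2 in KO mice and 10.04 to 12.18 log2 in WT mice. The mean of 10 Schwann cell and nerve markers was 6.53 to 7.85 log2 in KO mice and 7.08 to 9.57 log2 in WT mice, and that of 13 skeletal muscle markers 6.02 to 6.28 log2 in KO mice and 6.19 to 7.62 log2 in WT mice. The muscle means of KO mice lay near background, which was 5.40 to 5.995 log2 there. Of the nerve markers, Mag, Gfap and Cnp lay below background in all 8 mice. WT mouse 1 was the highest in nerve and muscle markers, and KO mouse 6 the lowest in neutrophil markers. The nerve marker mean had r = 0.23 and rho 0.76 with Egr1, and 0.34 and 0.76 with Nr4a1, and without WT mice 2 and 3 r was 0.82 and 0.92. The muscle marker mean had r = 0.28 and rho 0.60 with Egr1, and 0.43 and 0.60 with Nr4a1, and without these 2 mice r was 0.66 and 0.93. Such values were not particular to nerve and muscle. Without these 2 mice r with Egr1 was −0.83 for red cell precursor, −0.81 for osteoclast, −0.74 for osteoblast and 0.90 for nucleus pulposus markers. It was −0.47 to 0.08 for neutrophil, macrophage, B cell and endothelial markers. With genotype means removed, r with Egr1 and Nr4a1 was −0.06 and 0.05 for nerve markers and −0.09 and 0.10 for muscle markers. Without WT mouse 3 alone it was 0.47 and 0.51 for nerve markers and 0.37 and 0.52 for muscle markers. Their part in the Egr1 and Nr4a1 differences was not tested, and with nerve or muscle markers as a covariate the log2 fold change was −2.11 or −2.16 for Egr1 and −1.94 or −1.89 for Nr4a1, which was outside the cutoff in both. Lower in KO AF were 14 of 16 neutrophil, 7 of 10 nerve and 9 of 13 muscle markers, beside 47.6% of all probe sets. The 14 neutrophil markers include Camp and Ngp, which stood at the top of the scale, so that no direction is read from them. Higher in KO AF, opposite to Egr1 and Nr4a1, were 8 of 8 osteoclast, 8 of 9 osteoblast, 7 of 8 red cell precursor and 6 of 7 nucleus pulposus markers. Over all probe sets 47.6% were lower. The median log2 fold changes of these 4 lists were 0.48, 0.33, 0.56 and 0.39, and 0.54, 0.26, 0.58 and 0.04 without WT mouse 3. The nucleus pulposus median thus rests on WT mouse 3, which had the lowest mean of these markers (7.27 log2). For these lists and those of macrophages, B cells and endothelium the 2-sided exact permutation p of the means was 0.143 or more. Abcc6 itself had 6.17, 5.64, 5.01 and 5.56 log2 in KO mice 6, 7, 8 and 9, and 5.15, 5.25, 5.23 and 4.97 log2 in WT mice 1, 2, 3 and 5, below background in all mice but KO mouse 6, so that it checks no genotype. Array medians were 6.32 to 6.50 log2 in KO mice and 6.34 to 6.45 log2 in WT mice. Over all probe sets 161 (0.725%) reached the cutoff, 66 of them lower in KO AF, and 0 had an adjusted p under 0.05 (limma), while 1172 (5.28%) had an unadjusted p under 0.05. Without WT mouse 3, 20 (0.0901%) were lower at the cutoff.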

How the data were processed

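AF RNA of 4 KO and 4 WT mice was measured on Mouse Clariom S arrays, 1 array per mouse. The deposited values are log2 signal that the authors normalised with sst-RMA in the Transcriptome Analysis Console. Their genome build is not given in the sources used here. Of 28846 probe sets, 6640 controls were left out of the tests, and 0 sample columns were left out. Gene symbols are those of the platform annotation, and all 19572 named probe sets were found by gene identifier in GRCm38.p6. The methods' filter on detection p-values was not repeated, and probe sets of low signal stayed in. KO minus WT was fitted across the 22206 probe sets with lmFit and eBayes of limma 3.58.1, under R 4.3.3 and with no covariate, and p-values were adjusted by Benjamini and Hochberg over all of them. The procedure was tested on simulated data. Exact permutation tests were 2-sided. The number of arrays limits the precision. A gene's value is that of its probe set with the highest mean. Named are all 7 members, up to 8 other immediate-early genes and up to 3 genes of every other list with the smallest p, genes at the cutoff in them, all genes of lists of up to 3, up to 2 markers with the highest mean per cell type, the 3 genes most like each member, and Abcc6. Members and lists were chosen with earlier results of these data known. The alternatives were other scalings, a signal filter, other variance models, array weights, an unpaired test, covariates, thresholds and leaving out each mouse in turn. Promoter sequences are from RefSeq, and 5 of the 7 genes matched an entry, all but Egr1 and Egr3.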

Additional observations from a re-analysis of the deposited data

Results flagged for a closer look

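No mouse was flagged within its genotype for any of the 7 members by the rule below. In groups of 4 mice this does not show that none stood apart. WT mouse 3 was 2.24 log2 above the next mouse in Egr1 and 1.88 log2 above it in Nr4a2. Among 150 groups of 4 mice examined, 10 had a highest or lowest mouse whose gap to the next, as a share of the group's range, was over Dixon's 95% critical value, and chance flags about 1 in 20 groups. In KO mice these were Fosb, lowest in KO mouse 9 (9.06 log2), Mef2d, lowest in KO mouse 7 (8.27 log2), and Rxra, lowest in KO mouse 8 (5.21 log2). Mbp (7.27 log2) and Ngp (19.89 log2), a neutrophil granule gene, were highest in KO mouse 8. Ngp stands at the top of the scale, where Ngp and Camp shared the value 19.65 log2 in KO mouse 7, so that no difference between mice is read from it. Prelid3a was highest in KO mouse 7 (6.02 log2). In WT mice, Mef2d (10.03 log2), Tmbim1 (8.03 log2) and Fam25c (7.08 log2) were highest in WT mouse 3. Mal was highest in WT mouse 1 (12.42 log2). Tmbim1 and Fam25c were named for their likeness to Nr4a2, whose own highest value was also in WT mouse 3.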

How the results depend on the processing

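Egr1, Egr2, Nr4a1 and Nr4a2 were lower in KO AF under every alternative run, and the medians of the members and of the other immediate-early genes kept their sign, from −1.09 to −0.08 and from −1.05 to −0.41. The count of members at the cutoff, 1 with all mice, was 0 with array weights, in the unpaired t-test and with the control contrast or the neutrophil, nerve or muscle markers as a covariate, and 2 at an unadjusted p of 0.05 and a fold change of 1.5. It ran from 0 to 3 when each mouse was left out, with 0 without KO mouse 7, 8 or 9 or WT mouse 2 or 3, and 3 without WT mouse 5. The count of other immediate-early genes, 2 with all mice, was 0 with quantile normalization, in the unpaired t-test and with the control contrast or muscle markers, 1 with neutrophil markers and 8 at the looser threshold. Leaving out mice gave 0 (KO mouse 7 or 9) to 5 (WT mouse 5), with 1 without KO mouse 6 or 8 or WT mouse 3 and 4 without WT mouse 1. The 161 probe sets at the cutoff became 94 with the signal filter, 704 with array weights, 73 in the unpaired t-test, 71, 92 and 81 with the control contrast, neutrophil and muscle markers, and 1164 at the looser threshold. Leaving out mice gave 49 (without WT mouse 3) to 992 (without KO mouse 8). The first 2 Egr3 probe sets and Nr4a3 changed sign, while Egr4 and the third Egr3 probe set did not. The first Egr3 probe set gave −0.064 with quantile normalization, −0.0064 with median centring, −0.017 without KO mouse 9 and −0.034 without WT mouse 5 (range on leaving out mice −0.034 to 0.11). The second gave 0.090 without KO mouse 8 and 0.035 without WT mouse 3 (range −0.20 to 0.090), and Nr4a3 gave 0.095 without WT mouse 3 (range −0.39 to 0.095). The cause of these changes was not tested. No paired analysis was possible because the mouse numbers of the genotypes share none.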
